A study of Mus musculus with 11 samples.

Results

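Genes of the T cell receptor complex and of T cells that live in the epidermis were followed on arrays of mouse back skin keratinocytes. The 10 genes are Cd3d, Cd3e, Cd3g, Cd7, Cd163l1, Thy1, Trgv1, Zap70, Itgae and Cd96, and every probe set whose platform annotation gives exactly 1 gene symbol among these names was taken. That gave 14 probe sets for the 10 genes, out of 34945 probe sets with 1 symbol for 18193 genes. The choice uses names only, but the names were picked with earlier results of these arrays known, so the pattern below is a description of these samples.

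All cells came from K5-myrAkt(L84) transgenic mice, in which the keratin 5 promoter drives a membrane-bound, active form of the kinase Akt in basal keratinocytes and their descendants. Both groups carry the transgene, and no samples without it are analysed here. Keratinocytes were taken from back skin, bound to an antibody against CD34 and sorted with magnetic beads into a CD34+ fraction (5 arrays) and a CD34- fraction (6 arrays). CD34 marks stem cells of the hair follicle bulge. The cell type labels name hair follicle stem cells for both fractions, while the design text calls the second only CD34(-) cells. Age, hair cycle stage and number of mice are not given, and nothing says that the arrays came from separate animals, so the p-values here reflect only how far these samples scatter, which may be technical. The log2 signal of Cd34 averaged 11.83 ± 1.17 (SD, n = 5) over CD34+ samples and 4.20 ± 1.57 (SD, n = 6) over CD34- samples. Krt5, a keratin of basal keratinocytes, was near the top of the scale in both, at 14.94 ± 0.27 (SD, n = 5) and 15.02 ± 0.17 (SD, n = 6).

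Mouse epidermis holds a resident population of gamma delta T cells, the dendritic epidermal T cells, which sit between keratinocytes and respond to their stress and wounding. A T cell receptor consists of a pair of variable chains, alpha with beta or gamma with delta, bound to CD3 chains and to the CD247 (zeta) chain. The CD3 chains are gamma, delta and epsilon, and not every receptor holds all of them. The variable chains recognise the ligand, and the CD3 and zeta chains carry the tyrosine motifs that recruit the kinase ZAP-70 when the receptor is engaged. Each array measured the RNA of a whole sorted fraction, which can hold several cell types. Fewer T cells, less RNA per T cell and signal from other cells therefore cannot be told apart in any result below.

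The CD3 genes lie side by side in the mouse genome. In RefSeq's annotation of GRCm38.p6, Cd3g spans chromosome 9 from 44969572 to 44980431, Cd3d from 44981769 to 44987052 and Cd3e from 44998735 to 45009663. Cd3g and Cd3d point away from each other with 1337 bases between them, and 11682 bases lie between Cd3d and Cd3e. Thy1 lies on the same chromosome at 44043384 to 44048579. Cd7 lies on chromosome 11 at 121036747 to 121039478, and Itgae on the same chromosome at 73090505 to 73147449. Cd163l1 lies on chromosome 7 at 140197218 to 140231145, Zap70 on chromosome 1 at 36761798 to 36782821, and Cd96 on chromosome 16 at 46035652 to 46120248. Trgv1 is a variable segment of the gamma chain locus on chromosome 13 at 19340016 to 19340454. These are the positions of the whole genes, since the probes' own positions were not used here.

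The promoters of the 3 CD3 genes are shown because these genes encode the CD3 chains, are neighbours and were all lower in CD34+ samples. Each window runs from 250 bases before to 50 bases after a transcript start in RefSeq's promoter table, which for Cd3d and Cd3e lies inside the gene bounds given above, 5′ to 3′ along the gene, at chr9:44980382-44980681 (minus strand, Cd3g), chr9:44981536-44981835 (plus strand, Cd3d) and chr9:45009562-45009861 (minus strand, Cd3e) of GRCm38.p6. Capitals mark matches, on either strand, to 1 short motif for each of 4 transcription factor families active in T cells. The letters searched were AGGAAG for the Ets family. For the RUNX family they were TGTGGT, as in its core site. For the GATA family the search used AGATAA, and for the TCF/LEF family it used TCAAAG.
Cd3g: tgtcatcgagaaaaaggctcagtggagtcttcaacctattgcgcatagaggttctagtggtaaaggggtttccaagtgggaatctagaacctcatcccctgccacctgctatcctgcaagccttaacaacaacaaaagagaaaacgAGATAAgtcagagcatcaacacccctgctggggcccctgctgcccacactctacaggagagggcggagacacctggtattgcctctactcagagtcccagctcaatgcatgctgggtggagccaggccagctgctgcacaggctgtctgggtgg
Cd3d: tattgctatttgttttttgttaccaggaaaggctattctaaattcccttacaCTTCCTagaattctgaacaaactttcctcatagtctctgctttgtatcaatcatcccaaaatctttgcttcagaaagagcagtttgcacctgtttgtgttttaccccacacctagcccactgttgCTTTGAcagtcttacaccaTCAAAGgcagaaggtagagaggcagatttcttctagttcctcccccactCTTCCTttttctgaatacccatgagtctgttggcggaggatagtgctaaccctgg
Cd3e: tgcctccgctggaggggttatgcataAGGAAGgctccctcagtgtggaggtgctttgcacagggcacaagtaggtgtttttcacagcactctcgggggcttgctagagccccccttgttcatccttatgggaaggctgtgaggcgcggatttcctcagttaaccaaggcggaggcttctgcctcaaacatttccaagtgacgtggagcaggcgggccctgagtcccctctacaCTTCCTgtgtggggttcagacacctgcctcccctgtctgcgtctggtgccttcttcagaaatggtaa
The Cd3d window held 2 Ets and 2 TCF/LEF matches, the Cd3e window 2 Ets matches, and the Cd3g window 1 GATA match. A window was found for 6 of the 10 genes, 8 windows in all since Zap70 has 3. Of the 8, 4 held an Ets match, 2 a RUNX match, 2 a GATA match and 2 a TCF/LEF match. Among all 32851 windows of this length, 35.4% held the Ets letters, 16.8% RUNX, 11.2% GATA and 16.0% TCF/LEF. No 2 of the 6-letter matches shown overlap.

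Most members gave lower signals in CD34+ than in CD34- samples, and 1 probe set of Zap70 was higher. Of the 14 probe sets, 10 (of 9 genes) were bright enough to be tested, with a mean log2 signal over all arrays of at least 6.06. Cd3d, 1 probe set of Cd163l1 and 2 of Zap70 were dimmer than that. In a linear model for every tested probe set (limma, with Benjamini-Hochberg adjustment over all 20967), 7 of the 10 fell in CD34+ samples and 1 rose at an adjusted p under 0.05. The 7 belong to Cd3e, Cd3g, Cd7, Cd163l1, Thy1, Trgv1 and Itgae, with differences from -1.20 to -3.85 on the log2 scale. Over all tested probe sets 9.77% were called lower and 11.0% higher, and the median difference was 0.02. Of these 7, the 3 of Cd7, Cd163l1 and Trgv1, had a CD34+ mean under the brightness threshold and so passed it only through the CD34- samples. In 6 of the 10 tested probe sets every CD34+ array lay below every CD34- array, which held for 6.20% of all tested probe sets, and Zap70 1439749_at was alone in the opposite order (7.20%). Without the brightness filter 9 of the 14 were called lower and 1 higher, where 5.10% and 6.55% of all probe sets were. With the dimmest 60% left out, 6 remained to be tested, of which 4 were called lower and 1 higher (14.1% and 10.2% of all).

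**Figure D1:**
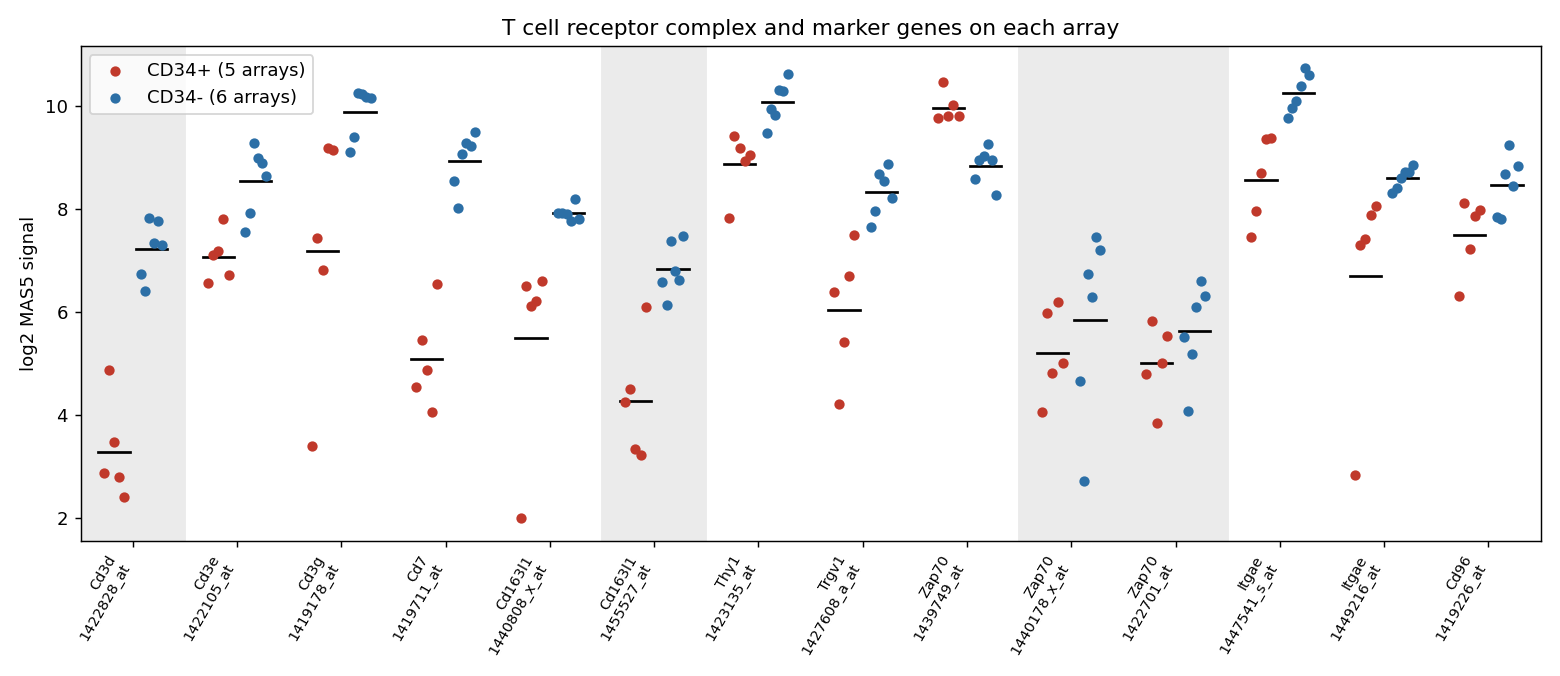
log2 MAS5 signal (vertical axis) of the 14 probe sets on each of the 5 CD34+ arrays (red) and 6 CD34- arrays (blue), in array order from left to right, with black bars at the group means. Grey bands mark the 4 probe sets under the brightness filter. Red points lie below blue ones for most genes, and above them only for Zap70 1439749_at.

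The mean signals of all 3 CD3 chains were lower in CD34+ than in CD34- samples, and the 2 that were tested, Cd3e and Cd3g, passed. For Cd3e, the epsilon chain needed for assembly of every T cell receptor, the log2 signals on CD34+ arrays 1 to 5 were 6.57, 7.10, 7.18, 7.80 and 6.71. On CD34- arrays 1 to 6 they were 7.55, 7.92, 9.29, 8.99, 8.89 and 8.64. The groups touched only through CD34+ array 4 and CD34- array 1. The difference was -1.48 (SE 0.32, limma adjusted p = 0.0068), a 2.78-fold lower signal, from 8.55 ± 0.67 (SD, n = 6) to 7.07 ± 0.48 (SD, n = 5).

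Cd3g, the gamma chain of the complex, varied widely among the CD34+ arrays. Its log2 signals were 3.40, 7.43, 6.81, 9.18 and 9.15 on CD34+ arrays 1 to 5. They were 9.11, 9.39, 10.26, 10.23, 10.17 and 10.16 on CD34- arrays 1 to 6. CD34+ arrays 4 and 5 thus reached the level of CD34- array 1, while CD34+ array 1 lay far below all others. The difference was -2.69 (SE 0.78, limma adjusted p = 0.0276). Without CD34+ array 1 it was -1.74 with the call kept, with that array's dim value raised to the 40th percentile it was -2.10, and dropping any 1 of CD34- arrays 3 to 6 ended the call (highest adjusted p = 0.0542).

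Cd3d, the delta chain, was too dim for the main test because it was near the bottom of the scale on CD34+ arrays. It read 2.88, 4.87, 3.47, 2.80 and 2.40 there, under the 40th percentile of each array. On CD34- arrays it read 6.73, 6.40, 7.83, 7.35, 7.77 and 7.30, above that percentile on all 6. The groups were apart by over 1 log2 unit at their closest. The difference was -3.95 (SE 0.50), with an adjusted p of 1.90e-04 when limma was run without the brightness filter. With dim values raised to the 40th percentile of their array, Cd3d was at least 1.93-fold lower in CD34+ samples, which is all that can be said of the size.

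The T cell receptor's own gamma chain was represented by Trgv1. It read 6.38, 4.22, 5.42, 6.70 and 7.49 on CD34+ arrays and 7.66, 7.96, 8.68, 8.55, 8.88 and 8.22 on CD34- arrays. The groups did not overlap, although CD34+ array 5 came close to CD34- array 1. The difference was -2.28 (SE 0.46, limma adjusted p = 0.00481), and -1.66 with the 2 dim CD34+ values raised to the 40th percentile. Variable segments of 1 locus resemble each other in sequence, so the signal of this probe set may include related segments, which was not tested.

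Zap70, the kinase recruited to the tyrosine motifs of the CD3 and zeta chains, gave different answers by probe set. The brightest, 1439749_at, read 9.76, 10.46, 9.80, 10.02 and 9.80 on CD34+ arrays and 8.59, 8.95, 9.02, 9.27, 8.96 and 8.28 on CD34- arrays. Every CD34+ array was above every CD34- array, and the difference was 1.12 (SE 0.19, limma adjusted p = 0.00178). The other 2 probe sets were dim and went the other way on average, by -0.64 (SE 0.76) for 1440178_x_at and -0.63 (SE 0.54) for 1422701_at, with adjusted p = 0.605 and 0.46 in limma without the brightness filter. Both were under the 40th percentile on all 5 CD34+ arrays and overlapped between the groups. 1422701_at is the only one of these 3 that the annotation ties to a curated RefSeq messenger RNA, and 1439749_at has no accession there, so the rise is reported for that probe set and not for the gene.

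**Figure D2:**
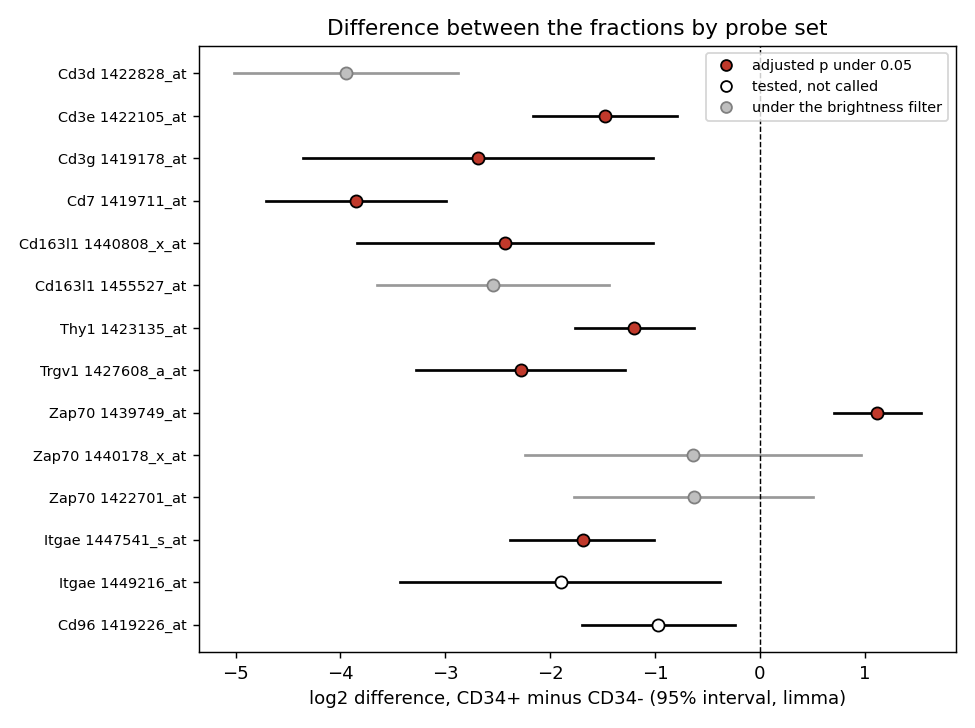
log2 difference, CD34+ minus CD34- (horizontal axis), with its 95% interval for each of the 14 probe sets. Red points are called, white points tested and not called, and grey points under the brightness filter, with intervals from the fit without that filter. Zap70 1439749_at is the only point right of 0, and the sizes of Cd3d, Cd7 and Cd163l1 1455527_at rest on mostly dim CD34+ values.

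Among the surface markers, Cd7, Cd163l1, Thy1 and Itgae fell on their brightest probe sets. Cd7, a small immunoglobulin family receptor of T and NK cells, read 4.54, 5.45, 4.87, 4.06 and 6.55 on CD34+ arrays. On CD34- arrays it read 8.54, 8.02, 9.07, 9.29, 9.23 and 9.49. Even the highest CD34+ array was well under the lowest CD34- array. The difference was -3.85 (SE 0.40, limma adjusted p = 5.34e-05), and 4 of the 5 CD34+ values were under the 40th percentile of their array. With such values raised to it, Cd7 was at least 5.89-fold lower in CD34+ samples.

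Cd163l1, a scavenger receptor family gene known from gamma delta T cells, had lower means on both of its probe sets, of which the brighter was tested and passed. 1440808_x_at read 2.00, 6.51, 6.12, 6.22 and 6.61 on CD34+ arrays against 7.93, 7.93, 7.91, 7.77, 8.19 and 7.81 on CD34- arrays. The CD34- values were almost level, with an SD of 0.15, and CD34+ array 1 lay apart from the other 4. The difference was -2.43 (SE 0.66, limma adjusted p = 0.02), and -1.56 without CD34+ array 1, with the call kept. With the 2 dim CD34+ values raised to the 40th percentile it was -1.53. The dimmer 1455527_at read 3.22 to 6.10 on CD34+ arrays and 6.13 to 7.48 on CD34- arrays, a difference of -2.54 (SE 0.52) with no overlap. Its adjusted p was 0.00578 in limma without the brightness filter, but 4 of its 5 CD34+ values were under the 40th percentile. With values raised to that percentile the difference was -0.53 and the call was lost (limma adjusted p = 0.0707). In that fit the median difference of all probe sets was 0.45, with 47.8% called higher and 8.52% lower.

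Thy1, a surface glycoprotein of T cells that fibroblasts and other cells can also carry, had the smallest called fall. It read 7.83, 9.42, 9.18, 8.94 and 9.04 on CD34+ arrays and 9.48, 9.95, 9.83, 10.32, 10.29 and 10.62 on CD34- arrays. The groups did not overlap, but CD34+ array 2 came within 0.1 of CD34- array 1. The difference was -1.20 (SE 0.27, limma adjusted p = 0.00785), from 10.08 ± 0.41 (SD, n = 6) to 8.89 ± 0.61 (SD, n = 5).

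Itgae encodes the alpha E integrin chain (CD103), which with the beta 7 chain binds E-cadherin and holds T cells in epithelium. Its brighter probe set 1447541_s_at read 7.45, 7.96, 8.69, 9.35 and 9.38 on CD34+ arrays and 9.77, 9.97, 10.09, 10.38, 10.73 and 10.61 on CD34- arrays. No array crossed over, and the difference was -1.69 (SE 0.32, limma adjusted p = 0.00324). The second, 1449216_at, read 2.84, 7.30, 7.41, 7.89 and 8.06 against 8.31, 8.40, 8.61, 8.72, 8.72 and 8.85. It also did not overlap, but the low value of CD34+ array 1 widened the spread, and the difference of -1.90 (SE 0.71) had an adjusted p of 0.0701. Without that array the difference was -0.94 and the adjusted p 0.00449.

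Cd96, a receptor of T and NK cells for the nectin family protein PVR, read 6.32, 8.12, 7.23, 7.86 and 7.99 on CD34+ arrays. On CD34- arrays it read 7.85, 7.81, 8.68, 9.24, 8.44 and 8.83. The groups overlapped, with 3 CD34+ arrays above the lowest CD34- array. The difference of -0.97 (SE 0.34) did not pass the threshold (limma adjusted p = 0.0552).

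The sizes of the differences were not compared between members, since several of them rest on dim CD34+ values and the differences between members were not tested. Among the probe sets called lower that were above the 40th percentile on every array, the 95% intervals of Itgae 1447541_s_at (-2.38 to -1.01), Cd3e (-2.16 to -0.79) and Thy1 (-1.76 to -0.63) overlapped.

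The members also varied within each fraction. Relative to the CD34- mean, the CD34+ arrays had medians over the 10 tested probe sets of -2.53, -1.43, -1.47, -0.83 and -0.86, from array 1 to array 5. The CD34- arrays had -0.54, -0.33, 0.15, 0.29, 0.28 and 0.26, from array 1 to array 6. CD34- arrays 1 and 2 were both below all of CD34- arrays 3 to 6 for 7 of these 10 probe sets, among them all of the CD3, Cd7, Trgv1, Itgae and Cd96 probe sets tested. Over all tested probe sets this order held for 8.23%. CD34+ array 1 was the lowest of its group for 8 of the 10, against 30.7% of all tested probe sets.

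**Figure D3:**
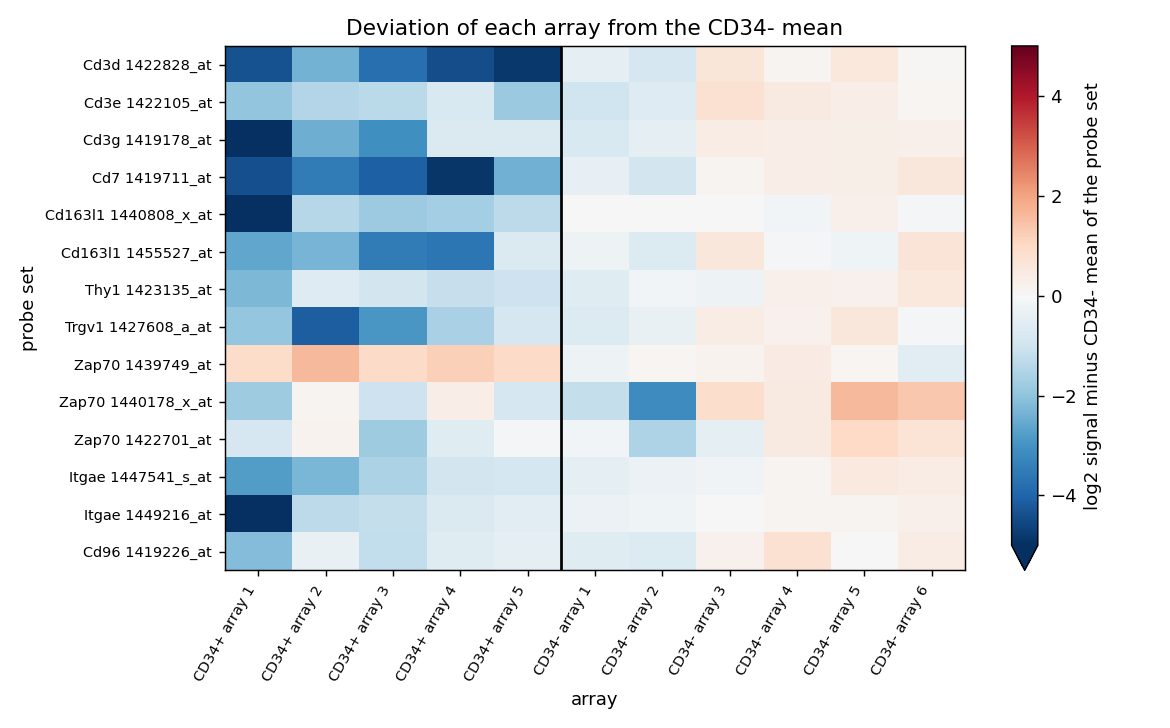
log2 signal of each probe set (rows) on each array (columns) minus that probe set's CD34- mean, with blue below and red above it and a black line between the fractions. Colours end at 5 log2 units below, which Cd3g, Cd163l1 1440808_x_at and Itgae 1449216_at pass on CD34+ array 1. CD34- arrays 1 and 2 are paler blue across most rows.

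A measure of RNA length also differed between the fractions. The actin ratio compares control probe sets at the 3-prime and 5-prime ends of the actin messenger RNA, as a log2 difference, and rises as RNA or labelled copies get shorter. The CD34+ arrays averaged 3.95 ± 0.99 (SD, n = 5) and the CD34- arrays 2.43 ± 0.19 (SD, n = 6). On CD34+ arrays 1 to 5 the ratio was 5.25, 4.56, 3.97, 2.90 and 3.06. The medians of the tested members on these arrays, given above, were -2.53, -1.43, -1.47, -0.83 and -0.86. Whether the ratio has a part in them was not tested. CD34- arrays 1 and 2, at 2.38 and 2.49, lay within the range of CD34- arrays 3 to 6, 2.19 to 2.76. All CD34+ values were above all CD34- values, so the ratio and the fraction are largely confounded. With the ratio as a covariate, 1 of the 10 tested probe sets was called lower, that of Cd7 (-3.61, SE 0.65, adjusted p = 0.0268), and none higher, when 0.119% and 0.591% of all probe sets were called. Cd3e was then -1.02 (SE 0.49), Trgv1 -1.26 (SE 0.67), Thy1 -0.83 (SE 0.40) and Itgae 1447541_s_at -0.51 (SE 0.32), all without a call. Cd3g turned to 0.48 (SE 0.63), Itgae 1449216_at turned to 0.67 (SE 0.73), Cd163l1 1440808_x_at was -0.34 (SE 0.79) and Cd96 -0.25 (SE 0.49). The 4 probe sets under the brightness filter were fitted with the covariate only without that filter. There Cd163l1 1455527_at was -2.40 (SE 0.84) and Cd3d -4.54 (SE 0.79), both resting on mostly dim CD34+ values. Zap70 1422701_at was -0.61 (SE 0.87) and 1440178_x_at 0.03 (SE 1.22). Zap70 1439749_at kept its size at 1.17 (SE 0.30) and lost its call (adjusted p = 0.117). In a fit without CD34+ arrays 1 and 2, chosen after the data were seen, 8 of the 10 were called lower and the same Zap70 probe set higher, beside 6.49% and 7.25% of all probe sets.

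Other genes of T cell receptor signalling moved in both directions. Of 29 listed, 20 were tested on their brightest probe set, of which 5 fell and 2 rose, with a median of -0.43. Among all 11891 genes tested in this way 10.5% fell and 11.6% rose, with a median of 0.02. The zeta chain gene Cd247 fell by 2.29 on the log2 scale (SE 0.57, limma adjusted p = 0.0136). Cd247 was under the 40th percentile on 3 of the 5 CD34+ arrays, so the size of its fall rests on mostly dim values. Ptprc, the leukocyte phosphatase CD45, fell by 1.81 (SE 0.40, limma adjusted p = 0.00755). Bcl10, an adaptor that links antigen receptors to NF-kappa-B and is also present in other cells, fell by 0.64 (SE 0.14, adjusted p = 0.00794). The other tested Bcl10 probe sets gave -0.50 (adjusted p = 0.0235), -0.77 (adjusted p = 0.163) and -0.15 (adjusted p = 0.355). Named after their values were seen, Trat1, an adaptor bound to the receptor complex, fell by 2.42 (SE 0.76) and Csk, a kinase that restrains Src kinases, fell by 0.58 (SE 0.16). That Trat1 probe set was under the 40th percentile on 2 of the 5 CD34+ arrays, and the other tested one gave -1.11 without a call (limma adjusted p = 0.0774). The 2 that rose were the Src family kinase gene Fyn (1.35, SE 0.23, adjusted p = 0.00163) and the ubiquitin ligase gene Cblb (0.54, SE 0.15, adjusted p = 0.0223), neither of which is limited to T cells. The other tested Fyn probe set rose too (1.69, SE 0.25), while those of Cblb gave -0.50 and -0.33 without a call. With equal array medians 14 of the 20 fell and 1 rose, in a setting that called 39.4% of all probe sets lower and 3.22% higher. After quantile normalization 8 fell and 2 rose (10.4% and 6.65% of all), and adjusting for the actin ratio left none called.

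Few of the receptor's other gene segments could be tested. Of 6 with a probe set, 2 were tested and both fell, Trgv4 of the gamma locus (-1.64, SE 0.30, limma adjusted p = 0.00269) and Trbv1 of the beta locus (-0.83, SE 0.19, adjusted p = 0.00837). Trgv4 went from 9.80 ± 0.43 (SD, n = 6) to 8.16 ± 0.73 (SD, n = 5), and its other tested probe set also fell (-1.97, SE 0.39). Trbv1 was as bright, going from 9.98 ± 0.19 (SD, n = 6) to 9.15 ± 0.43 (SD, n = 5). The 3 alpha locus probe sets were dim on nearly every array, with Tcra under the 40th percentile on all 11. Markers of alpha beta T cells were likewise mostly dim. Of 11 measured, 3 were tested on their brightest probe set and none was called by limma or by the exact permutation test (0 at an unadjusted p under 0.05), among them Cd8a at 7.40 ± 0.42 (SD, n = 6) and 7.84 ± 0.41 (SD, n = 5), and Icos at 7.17 ± 0.52 (SD, n = 6) and 6.83 ± 0.62 (SD, n = 5), each with the CD34- value first. A second probe set of Icos, a costimulatory receptor of activated T cells, did fall (-2.97, SE 0.84, adjusted p = 0.0245). Cd4 was under the 40th percentile on every array. The CD4 and CD8 receptors are carried by most alpha beta T cells and by few epidermal gamma delta T cells.

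Of 24 listed genes associated with epidermal gamma delta T cells, 18 were tested, of which 6 fell and 3 rose, with a median of -0.54. Among all genes tested in this way 10.5% fell and 11.6% rose. Ctsw, a protease of cytotoxic lymphocytes, fell by 2.08 (SE 0.36, limma adjusted p = 0.00186), and Klrd1, the CD94 receptor chain, fell by 1.64 (SE 0.40, adjusted p = 0.0122). The 3 that rose were Klrg1, an inhibitory lectin receptor (1.11, SE 0.27, adjusted p = 0.0112), the transcription factor gene Sox13 (0.84, SE 0.21, adjusted p = 0.0152) and Tyrobp, an adaptor also found in myeloid cells (0.85, SE 0.25, adjusted p = 0.0279). After quantile normalization 6 fell and none rose, with equal array medians 10 fell and none rose, and adjusting for the actin ratio left none called. Itgb7, the partner chain of Itgae and named here for that reason, fell by 1.62 (SE 0.50, adjusted p = 0.0354).

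The cytotoxic genes Gzmc (-2.31, SE 0.30, limma adjusted p = 2.54e-04) and Prf1 (-2.32, SE 0.54, adjusted p = 0.01) were the 2 tested of 10 listed, and both fell, although the other tested Prf1 probe set gave 0.92 (adjusted p = 0.106). Ligands of the member receptors, 5 tested, gave no call (2 at an unadjusted p under 0.05, and 1 called by the exact permutation test, which called 10.3% of all probe sets lower and 11.3% higher). Their differences ran from -1.23 for Sectm1a to 0.63 for Nectin1, and Sectm1b differed by 0.16 (SE 0.17, adjusted p = 0.525). The E-cadherin gene Cdh1, ligand of the Itgae integrin, differed by 0.25 (SE 0.11, adjusted p = 0.119).

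**Figure D4:**
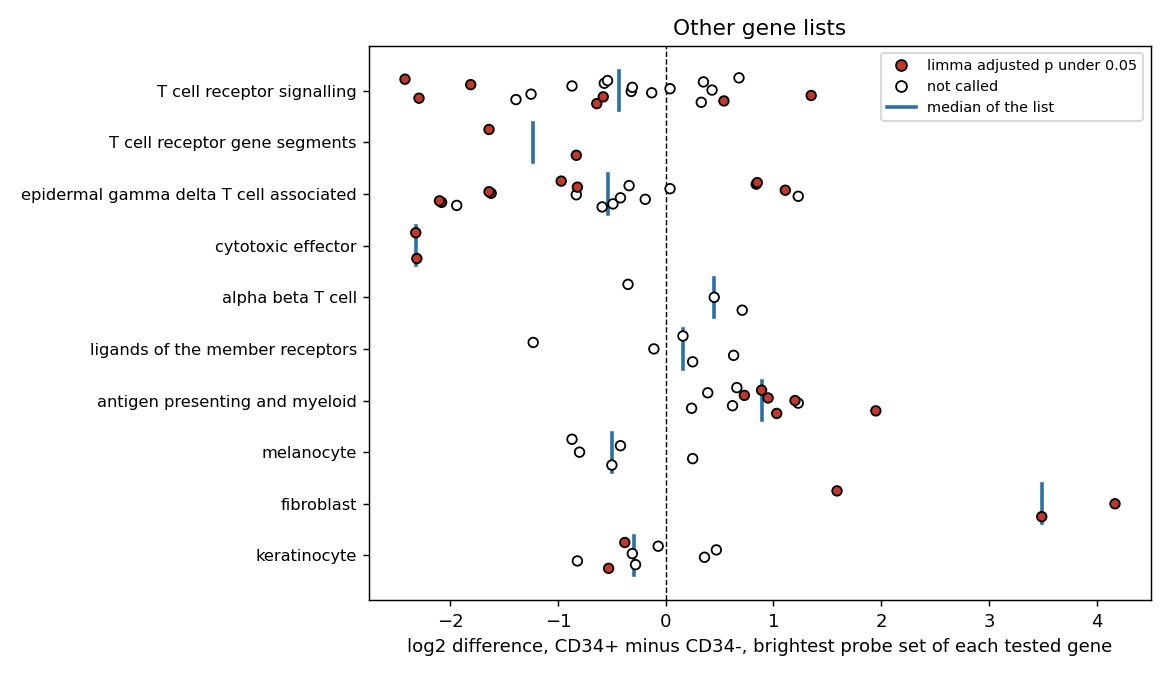
log2 difference, CD34+ minus CD34- (horizontal axis), for the brightest tested probe set of each gene in 10 other lists, with called genes in red, others in white and the median of each list as a blue bar. The T cell receptor gene segments and cytotoxic effector genes lie left of 0, and the myeloid and fibroblast genes right of 0.

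Markers of other cells moved in several ways. Of 11 tested antigen presenting and myeloid genes 6 rose and none fell, with H2-Aa at 0.95 (SE 0.25, limma adjusted p = 0.0169) and H2-Eb1 at 0.39 (SE 0.34, adjusted p = 0.44), but with equal array medians 1 rose. Their summed signal was 6793 to 18359 on CD34+ and 4830 to 8059 on CD34- arrays. The 3 tested fibroblast genes rose, Col1a2 (3.49, SE 0.26), Pdgfra (1.59, SE 0.44) and, named after its values were seen, Col3a1 (4.17, SE 0.85), which was dim on 4 of the 6 CD34- arrays, with sums of 2815 to 8322 and 378 to 754. Of 5 melanocyte genes none was called by limma or the exact permutation test (0 at an unadjusted p under 0.05), with Dct at -0.50 and Tyrp1 at -0.87, and sums of 4303 to 5663 and 3540 to 22608. Of 8 keratinocyte genes 2 fell, Itga6 (-0.53, SE 0.10) and Trp63 (-0.38, SE 0.13), both named after their values were seen, and none rose on its brightest probe set. Another Trp63 probe set did rise (0.52, SE 0.13, adjusted p = 0.013) and the remaining one gave -0.27 (adjusted p = 0.488). The keratinocyte list had sums of 145875 to 208083 and 142899 to 191352, Krt10 at 0.36 and Krt15 at 0.47. NK cell and mast cell genes were all too dim to test, the brightest being Eomes, Klra7, Cma1 and Cpa3. Single B cell and endothelial genes were tested and not called, Pax5 (0.63, adjusted p = 0.371) and Kdr (0.12, adjusted p = 0.787), with Ms4a1 and Tek under the brightness filter. What part these other cells have in the members' differences was not tested.

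Outside the list, 8 genes were singled out for profiles over the 11 arrays most like that of the members. Likeness was the root mean square distance, in log2 units, between a gene's centred profile and the mean centred profile of the 9 tested members, among 11882 genes with a median distance of 1.070. The nearest were Trgv4 (0.183), Selplg (0.236), Ptprc (0.266), Ctla2b (0.267), Ifi202b (0.297), Cntn1 (0.311), Il33 (0.325) and Cdca7l (0.331). Selplg encodes the selectin ligand PSGL-1 of leukocytes, Ptprc the pan-leukocyte antigen CD45, Il33 an alarmin cytokine that keratinocytes make, and Cntn1 a neural adhesion molecule. All 8 were lower in CD34+ samples, from -1.26 (Cdca7l) to -2.07 (Ctla2b), a direction that the measure itself selects. Among the members themselves Itgae was nearest to the mean of the others (0.318) and Zap70 1439749_at farthest (1.706).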

How the data were processed

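Total RNA of each fraction was labelled with biotin and hybridised to 1-colour Affymetrix arrays, 1 array per sample. The authors deposited 1 log2 value per probe set and array, with MAS5 named in the submitters' processing notes and no version or settings stated there. That the scale is log2 follows from the values: back on the linear scale, the trimmed mean was 500.0 on each array. Detection calls were not used, so low values are dim and have no reliable size.

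Groups and replicate numbers came from the sample titles. The members and gene lists were chosen with earlier results of these data known. Probe sets were named by the platform annotation, updated through gene identifiers to GRCm38.p6 for 34741 of 34945 probe sets with 1 symbol. The dimmest 40% by mean over all arrays were left out, and 20967 were fitted with limma 3.58.1 in R 4.3.3 (trended empirical Bayes, Benjamini-Hochberg). Every adjusted p is from limma unless another test is named. The number of arrays limits precision, and the median SE of a log2 difference was 0.216. A gene in another list is its brightest probe set. Named were every member, up to 4 called genes of smallest p in the lists on signalling, gamma delta T cells, segments and ligands, every gene of a direction with 3 or fewer calls in those lists, the 2 brightest of each other list and the 8 genes of nearest profile. Alternatives were another normalization, filter, floor, offset, moderation, array weights, an actin covariate, the replicate number as a block, a stricter threshold, an exact permutation test and leaving out arrays. The fit was also run on simulated data with independent noise of equal spread in both fractions. That run cannot speak for probe sets whose spread differs between the fractions. Promoters are RefSeq's, GRCm38.p6.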

Additional observations from a re-analysis of the deposited data

Results flagged for a closer look

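Both values that stood apart from their group belong to CD34+ array 1. Cd163l1 1440808_x_at had a log2 signal of 2.00 there, at a distance from the next CD34+ array of 0.89 of the group's range. Itgae 1449216_at had a log2 signal of 2.84 there, at 0.85 of the range. The other probe set of each gene did not stand apart in this way on that array. By chance about 1 in 20 groups would be marked so, and 14 probe sets in 2 groups were examined. CD34+ array 1 also had the highest actin ratio, 5.25, and the part of RNA length in these values was not tested.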

How the results depend on the processing

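The count of 7 member probe sets called lower was 6 to 9 on leaving out single arrays, where 6.49% to 10.7% of all probe sets were called lower. Under the other settings it was 5 to 9, apart from 2. The 5 was at an adjusted p under 0.01, where 3.11% of all were lower. With equal medians it was 9, where 39.4% were. With the dimmest 60% left out it was 4 of the 6 still tested (14.1% of all), and adjusted for the actin ratio it was 1 (0.119% of all). The count of 1 called higher stayed at 1 in every setting except the actin covariate, where it was 0. Of all probe sets, 3.22% were called higher with equal medians and 13.9% with values raised to the 40th percentile. The signs of the 10 tested differences held in every setting run, except that with the actin covariate Cd3g was 0.48 and Itgae 1449216_at 0.67. Of the 4 dim ones, Zap70 1422701_at was 0.22 with values raised to the 40th percentile and Zap70 1440178_x_at 0.03 with the actin covariate. That percentile was 6.035 to 6.656 on CD34+ and 5.628 to 5.862 on CD34- arrays, so raising dim values to it lifts CD34+ more. Without the brightness filter, this setting gave all probe sets a median difference of 0.45, with 47.8% called higher and 8.52% lower. The actin covariate is higher on every CD34+ array, and the cause was not tested. Equal array medians moved the median of all tested probe sets from 0.02 to -0.46, and the share of calls that were higher from 52.9% to 7.57%. That share was 39.0% after quantile normalization, 42.1% with the dimmest 60% left out and 83.2% with the actin covariate, where 124 were higher and 25 lower. Cd3g lost its call in 4 of 11 fits without 1 array, while Cd96 gained one in 4 and Itgae 1449216_at in 2. Same-numbered arrays of the fractions correlated by 0.017 to 0.180 in their deviations. Differently numbered arrays were not compared, so these values cannot decide whether the numbers pair samples. The main fit treated the samples as unpaired. The replicate block left 7 called lower and 1 higher, beside 6.81% and 7.79% of all probe sets. Dim values limit the sizes of Cd3d, Cd7, Cd163l1 and Trgv1.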
